A study of Mus musculus with 6 samples.

Results

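The genes described here are 56 genes of the spindle, the kinetochore, cohesin and condensin, out of 16490 mouse genes read on the same arrays. They are a list of names from chromosome segregation, and the rule that picks them uses no measured value, although the list was proposed with earlier results of these data known. Each gene was read from its brightest probe, the one with the highest mean normalized signal over the 6 arrays. All 56 members had such a probe, and each lay well above background on every array.

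Gene expression was measured in neuro2a (N2a) cells, a mouse neuroblastoma line, on 6 single-colour Agilent arrays. The 3 control arrays carried RNA of cells transfected with a control vector, which the sample titles call only Vector. The paper names an empty vector and a non-targeting miR vector as controls, without tying either to these arrays. The 3 knockdown arrays carried RNA of cells given miR RNAi vectors that target both the NF-YA subunit and the NF-YC subunit. Cells of both groups were collected 2 days after a Lipofectamine transfection. The RNAi hairpins sat in a vector that also encodes EmGFP, no sorting of transfected cells was described for these arrays, and nothing in the labels says that the replicates were separate cultures, so p-values measure the spread between these samples, which may be technical. The comparison asks how transcripts respond when RNAi targets these subunits of NF-Y, a transcription factor that binds CCAAT letters in promoters.

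During mitosis the kinetochore, a protein assembly built on centromeric chromatin, attaches each chromatid to spindle microtubules, and the spindle checkpoint delays anaphase until all chromatids are attached. Condensin compacts the chromosomes, cohesin holds sister chromatids together, and the anaphase-promoting complex ends the hold by marking securin and cyclins for degradation. Many of these genes are transcribed late in the cell cycle. Their promoters are known for CCAAT letters and for the cell cycle homology region, a short element bound by the MuvB complexes.

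A level is the processed signal on the log2 scale, set relative to the 75th percentile of its own array, and a change is the knockdown mean minus the control mean on that log2 scale. Levels of different probes are not comparable. A gene passed the test at a limma adjusted p below 0.05, and it was called when its fold change was also above 1.5. RNA came from whole dishes, where fewer cells of a kind and less RNA per cell cannot be told apart.

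The arrays were alike in brightness, with 75th percentiles from 718 to 754 intensity units. The share of spots well above background was 61.9% to 66.2%, lowest on knockdown array 2. Nfya differed by -0.76 (SE 0.055, limma adjusted p 0.00128) and Nfyc by -1.81 (SE 0.045, limma adjusted p 0.000323), as the labels state. Nfyb, the gene of the remaining subunit, which was not targeted, rose by 0.83 (SE 0.060, limma adjusted p 0.00131). Its other probes rose by 0.93 each. Of 15 neuronal and neuroblastoma markers, 14 were well above background on all arrays and Nefl on none, and their summed level was 8.35 to 8.40 on control arrays and 8.21 to 8.25 on knockdown arrays. Markers of other cell types were above background on all arrays for 2 of 5 in astrocytes, 4 of 5 in fibroblasts, 2 of 4 in leukocytes and 2 of 4 in endothelium, with Slc1a3, S100b, Col3a1 and Cdh5 on no array. Summed levels of the astrocyte markers were -2.39 to -2.20 in control and -2.63 to -2.47 in knockdown, and those of the endothelial markers 3.78 to 3.93 and 3.59 to 3.72, while the fibroblast and leukocyte sums overlapped between groups. The part of these differences in the results was not tested. The arrays lay on 1 slide, with all controls and knockdown array 1 in the same row and knockdown arrays 2 and 3 in another row.

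Aurkb, the catalytic kinase of the chromosomal passenger complex, was the only called member, and it was lower in knockdown. That is 1 of 56 members, or 1.79%, where 5.00% of all genes were called lower, and 0 members were called higher where 3.91% of all genes were. At the adjusted p alone 14 members were lower (25.0%, against 15.8% of all genes) and 7 were higher (12.5%, against 15.7%), while 35 passed in neither direction. For all 21 the knockdown arrays lay on 1 side of the controls, which selection by the test on the same arrays largely fixes. Of the 21, 20 changed by less than 1.5-fold. The balance between directions turned on the scaling. Members were 11 lower and 12 higher after quantile normalization, and 9 lower and 1 higher after median centring. All genes were not counted at the adjusted p alone under these scalings. With the fold limit, all genes called were 824 lower and 644 higher in the main setting. They were 845 and 596 after quantile normalization, and 928 and 521 after median centring.

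The members taken as a whole were flat. Their median change was 0.0059, beside 0.0053 over all genes tested, and it was 0.051 after quantile normalization and -0.039 after median centring. Exactly 28 members lay below 0 and 28 above, and 37 lay within 0.2 of it. The 3 knockdown arrays lay below all controls for 23 members (41.1%, against 27.1% of all genes) and above all controls for 16 (28.6%, against 27.7%). For 53 members the 95% interval of the change stayed inside 1.5-fold in both directions, which is 0.58 on the log2 scale. The exceptions were Aurkb, Cenpk with an interval of -0.61 to -0.33, and Cenpf with an interval of 0.051 to 0.78.

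**Figure D1:**
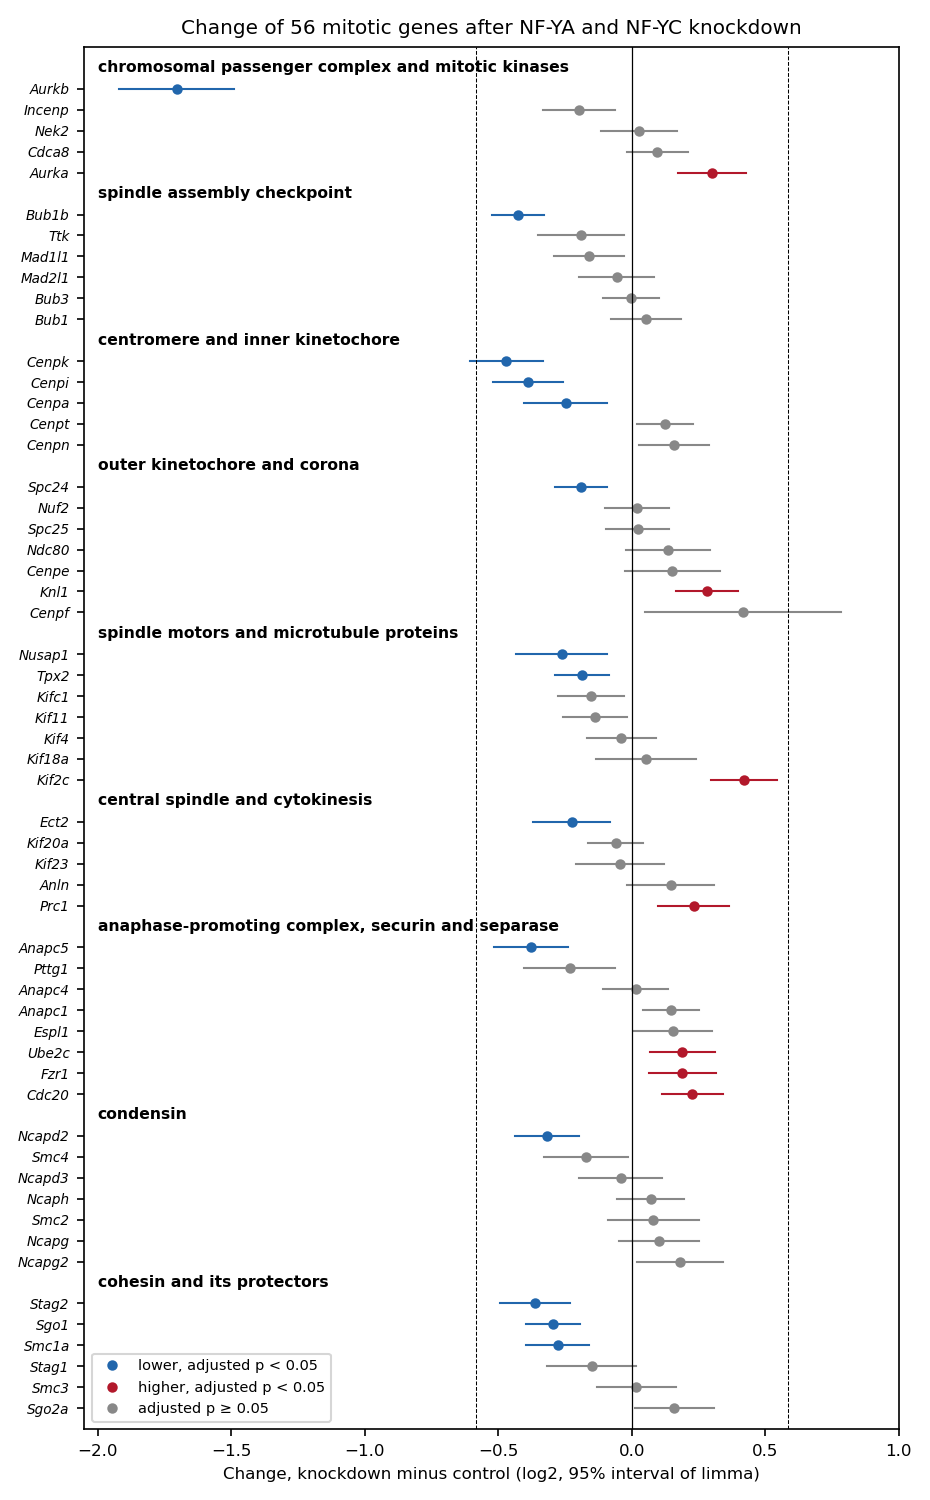
Change of each of the 56 members in knockdown against control, with points for the limma estimate, bars for its 95% interval, genes grouped by role and dashed lines at a fold of 1.5. Aurkb at -1.70 stands alone, and the next lowest gene is Cenpk at -0.47.

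**Figure D2:**
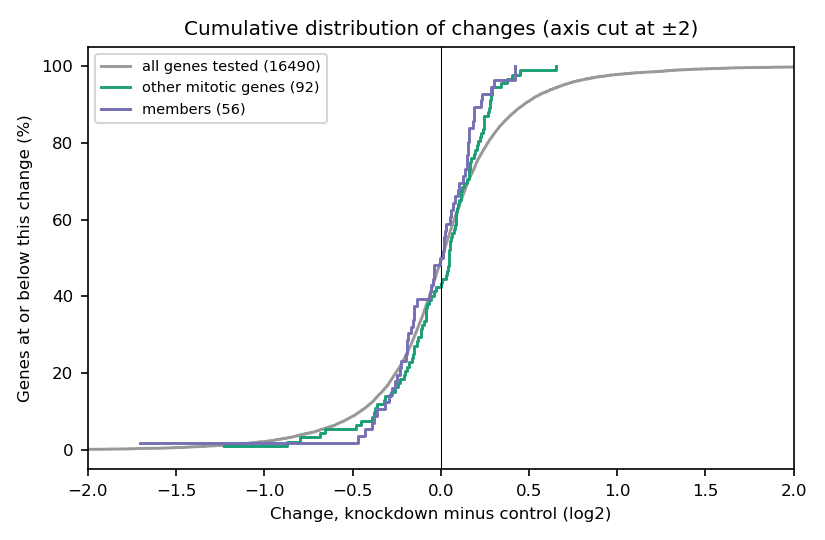
Cumulative share of genes, in percent, at or below each log2 change for the 56 members, 92 other mitotic genes and all 16490 genes tested. The curves of the members and of all genes cross the middle close to 0, with medians of 0.0059 and 0.0053, and 1 member (Aurkb at -1.70) lies far to the left.

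The chromosomal passenger complex corrects wrong attachments at the centromere and then moves to the midzone. Aurkb levels were -2.45, -2.52 and -2.40 on control arrays and -4.03, -4.31 and -4.15 on knockdown arrays. The groups did not overlap, and each knockdown array lay more than 1 log2 unit below the lowest control. The change was -1.70 (SE 0.085, limma adjusted p 0.000543), a 3.26-fold difference that left 30.7% of the control level. Aurkb has a single probe on the array (A_55_P1980631), and it was dim: the processed signal was 138, 128 and 142 intensity units in control and 45.7, 36.3 and 41.0 in knockdown, where the local background was 28 to 32 units. With normexp background correction the change was -0.93 and the gene was still called, as it was in all 18 alternatives.

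The partners of Aurkb did not pass the test. Incenp, the scaffold that activates the kinase, had levels of 5.71, 5.58 and 5.61 in control and 5.48, 5.43 and 5.40 in knockdown, a difference of -0.20 with a limma adjusted p of 0.0526. Cdca8, which encodes borealin, differed by 0.095 (limma adjusted p 0.199) with a 95% interval of -0.02 to 0.21. The gap between the changes of Aurkb and Incenp was -1.51, and between Aurkb and Cdca8 it was -1.80. Each of 7 such pairs of partners had an exact two-sided permutation p of 0.1, the smallest that 3 arrays against 3 allow. Adjustment over the 7 pairs by Benjamini-Hochberg left the p at 0.1. In all 7 pairs a member that passed lower was set against a partner that did not pass. A negative gap was thus largely built into the choice of pairs, and this p cannot decide whether partners differ. Birc5, or survivin, which belongs to the same complex but is not a member, differed by 0.052 (limma adjusted p 0.465).

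The related kinase Aurka, which acts at centrosomes and spindle poles, went the other way. Its levels were 4.75, 4.75 and 4.78 in control and 5.13, 5.00 and 5.06 in knockdown. It rose by 0.30 (SE 0.050, limma adjusted p 0.0128), with no overlap between groups. Nek2, a kinase of centrosome separation, differed by 0.027 and its groups overlapped.

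Among 6 genes of the spindle checkpoint, 1 passed the test, lower (16.7%, against 15.8% of all genes). Of the 6 changes, 5 lay below 0, as did 8120 of all 16490 genes, and that of Bub3 was close to 0. Bub1b encodes BubR1, a part of the mitotic checkpoint complex that holds the anaphase-promoting complex inactive. Its levels were 2.80, 2.80 and 2.82 in control and 2.38, 2.36 and 2.40 in knockdown. The replicates lay close together and the groups did not overlap, and Bub1b fell by 0.43 (SE 0.038, limma adjusted p 0.00217), to 74.4% of control. The gene passed in all 18 alternatives.

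The promoter of Bub1b is shown because it holds both kinds of letters and the gene passed in every alternative. Windows here are 300 bases, 250 before and 50 after the transcription start, from RefSeq on GRCm38.p6, read 5′ to 3′ on the strand of the gene. Capitals mark CCAAT on either strand (ATTGG on the strand shown) and the cell cycle homology region as TTTGAA or TTCGAA on either strand (TTCAAA for the former read from the other strand). The Bub1b window is chr2:118597961-118598260, on the plus strand, with 1 CCAAT match and 2 matches to the homology region.
Bub1b: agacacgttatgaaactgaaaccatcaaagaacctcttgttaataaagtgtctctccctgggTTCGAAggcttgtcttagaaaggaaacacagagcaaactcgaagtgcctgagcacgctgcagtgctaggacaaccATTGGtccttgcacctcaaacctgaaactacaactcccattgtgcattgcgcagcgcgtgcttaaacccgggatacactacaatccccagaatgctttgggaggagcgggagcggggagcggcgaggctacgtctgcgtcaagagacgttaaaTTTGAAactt

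The kinase Bub1, the paralogue of Bub1b that recruits it to kinetochores, had levels of 2.31, 2.24 and 2.34 in control and 2.41, 2.31 and 2.33 in knockdown, which overlap. The change of Bub1b was lower than that of Bub1 by a difference of -0.48, with the exact permutation p of 0.1 given above. For a pair chosen by outcome this p cannot decide whether the partners differ. Ttk, the kinase Mps1, differed by -0.19 (limma adjusted p 0.0953), and Mad1l1, the anchor of Mad2 at unattached kinetochores, by -0.16 (limma adjusted p 0.0889). Mad2l1 and Bub3 differed by -0.056 and -0.0029.

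At the inner kinetochore 3 of 5 members were lower at the adjusted p (60.0%, against 15.8% of all genes) and none was higher (against 15.7%). A role group of so few genes gives no precise share. Cenpk and Cenpi encode neighbouring subunits of the constitutive centromere network that sits on the histone variant Cenpa. Cenpk levels were 3.0, 2.89 and 2.97 in control and 2.49, 2.42 and 2.54 in knockdown. Cenpi levels were 1.64, 1.62 and 1.76 in control and 1.28, 1.28 and 1.29 in knockdown. Neither gene overlapped between groups. Cenpk fell by 0.47 (SE 0.054, limma adjusted p 0.00446) and its other probe fell by 0.42, and Cenpi fell by 0.39 (SE 0.052, limma adjusted p 0.00691). Cenpa fell by 0.25 (limma adjusted p 0.0435), but it passed in none of the 6 fits that left out 1 array.

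Cenpk, the lowest member after Aurkb, has 3 windows in the table. The one shown is chr13:104228716-104229015 on the plus strand, which holds 2 CCAAT matches, 65 and 40 bases before the start, and no match to the homology region. It is the window with most CCAAT matches, and each other window holds 1.
Cenpk: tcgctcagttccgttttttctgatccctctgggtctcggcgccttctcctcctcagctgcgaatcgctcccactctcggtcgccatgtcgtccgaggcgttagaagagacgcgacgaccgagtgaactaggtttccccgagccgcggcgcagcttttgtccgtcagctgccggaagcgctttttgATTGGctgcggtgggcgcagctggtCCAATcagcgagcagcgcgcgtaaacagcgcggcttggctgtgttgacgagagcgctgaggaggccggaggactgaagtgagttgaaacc

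The other inner subunits did not pass. Cenpn, which reads the Cenpa nucleosome, differed by 0.16 (limma adjusted p 0.0923), and Cenpt, which joins the inner to the outer kinetochore, by 0.12 (limma adjusted p 0.0893). Both had all knockdown arrays above all controls. The change of Cenpk was lower than that of Cenpn by a difference of -0.63 (exact permutation p 0.1, the smallest possible). The pair was chosen by outcome, so this p cannot decide whether the partners differ.

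In the outer kinetochore 1 of 7 members passed lower and 1 higher (14.3% each, against 15.8% and 15.7% of all genes). Of the 7 changes, 6 lay above 0, as did 8370 of all 16490 genes, and those of Spc25 and Nuf2 were close to 0. Spc24, a subunit of the microtubule-binding Ndc80 complex, fell by 0.19 (SE 0.039, limma adjusted p 0.0239), while Spc25, Ndc80 and Nuf2 of that complex differed by 0.023, 0.14 and 0.019. Groups overlapped for Spc25 and Nuf2. Knl1, the platform for the Bub proteins, had levels of -0.16, -0.21 and -0.15 in control and 0.11, 0.07 and 0.15 in knockdown. It rose by 0.28 (SE 0.046, limma adjusted p 0.0120). Cenpf, a protein of the fibrous corona, had levels of -2.46, -2.13 and -2.09 in control and -1.61, -1.98 and -1.85 in knockdown. These did not overlap, yet the replicates were wide, and the difference of 0.42 did not pass (SE 0.14, limma adjusted p 0.103). Cenpe, the kinesin of the corona, differed by 0.15 (limma adjusted p 0.191).

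Among 7 spindle motors and microtubule proteins, 2 were lower (28.6%, against 15.8% of all genes) and 1 was higher (14.3%, against 15.7%). Kif2c, or MCAK, a kinesin that takes microtubules apart at the centromere, was the highest member that passed. Its levels were 0.67, 0.71 and 0.70 in control and 1.18, 1.1 and 1.06 in knockdown, without overlap. Kif2c rose by 0.42 (SE 0.049, limma adjusted p 0.00454), its other probe rose by 0.36, and it passed in all 18 alternatives. Nusap1, which bundles microtubules near chromosomes, fell by 0.26 (limma adjusted p 0.0466), and Tpx2, an activator of Aurora A, fell by 0.19 (limma adjusted p 0.0276). The dimmer probe of Tpx2 fell by 0.39 (limma adjusted p 0.00784). The crosslinking motors Kifc1 and Kif11 differed by -0.15 and -0.14 and did not pass.

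The Kif2c window is chr4:117178723-117179022, on the minus strand. It is shown beside that of Cenpk because it lacks CCAAT and holds 1 match to the homology region, 103 bases before the start.
Kif2c: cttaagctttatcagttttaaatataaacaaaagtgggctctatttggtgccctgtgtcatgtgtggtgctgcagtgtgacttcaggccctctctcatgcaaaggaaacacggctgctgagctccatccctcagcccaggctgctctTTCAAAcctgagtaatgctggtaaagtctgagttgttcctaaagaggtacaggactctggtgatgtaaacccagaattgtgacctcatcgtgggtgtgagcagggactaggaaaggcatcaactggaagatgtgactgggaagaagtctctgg

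Of 5 genes for the central spindle and cytokinesis, Ect2, the exchange factor that activates RhoA at the furrow, fell by 0.22 (SE 0.057, limma adjusted p 0.0464). Prc1, which bundles antiparallel microtubules in the midzone, rose by 0.23 (SE 0.052, limma adjusted p 0.0326). Anln, an actin-binding protein of the contractile ring, differed by 0.15 (limma adjusted p 0.174), and the kinesin Kif20a by -0.060 (limma adjusted p 0.356). Neither Ect2 nor Prc1 passed in any fit that left out 1 array.

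The anaphase-promoting complex and its partners held 3 of the 7 higher members, which is 37.5% of their 8 genes, against 15.7% of all genes. Cdc20 and Fzr1 are the alternative activators of the complex, and Ube2c is its ubiquitin-conjugating enzyme. Cdc20 levels were 4.61, 4.58 and 4.62 in control and 4.88, 4.83 and 4.79 in knockdown, a rise of 0.23 (SE 0.045, limma adjusted p 0.0222). Ube2c levels were 5.56, 5.55 and 5.45 in control and 5.70, 5.71 and 5.71 in knockdown, a rise of 0.19 (SE 0.048, limma adjusted p 0.0462), with 0.21 on its other probe. Groups did not overlap for either gene. Fzr1 rose by 0.19 (limma adjusted p 0.0485), and none of these 3 passed in a fit that left out 1 array.

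Cdc20 and Ube2c are shown as genes that were higher and whose windows hold several CCAAT matches. The Cdc20 window is chr4:118437294-118437593 on the minus strand, with 2 CCAAT matches and 1 match to the homology region. The Ube2c window is chr2:164769679-164769978 on the plus strand, with 6 CCAAT matches, the most of any member, of which 2 on opposite strands overlap as 1 run of capitals.
Cdc20: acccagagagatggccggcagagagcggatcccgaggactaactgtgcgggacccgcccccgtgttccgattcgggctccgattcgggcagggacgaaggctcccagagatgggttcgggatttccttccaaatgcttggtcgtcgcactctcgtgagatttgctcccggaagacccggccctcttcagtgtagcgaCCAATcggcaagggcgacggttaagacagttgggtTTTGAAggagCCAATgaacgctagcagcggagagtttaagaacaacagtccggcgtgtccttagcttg
Ube2c: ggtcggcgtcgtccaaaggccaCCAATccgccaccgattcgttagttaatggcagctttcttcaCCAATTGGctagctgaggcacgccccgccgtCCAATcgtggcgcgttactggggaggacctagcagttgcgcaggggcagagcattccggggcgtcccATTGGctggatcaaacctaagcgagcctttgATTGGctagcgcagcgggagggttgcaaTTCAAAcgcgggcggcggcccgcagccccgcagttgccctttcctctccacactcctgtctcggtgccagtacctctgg

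Anapc5, a scaffold subunit of the complex, was lower, with no overlap between groups. Its levels were 7.29, 7.18 and 7.21 in control and 6.87, 6.89 and 6.79 in knockdown. It fell by 0.38 (SE 0.055, limma adjusted p 0.00890) and its dimmer probe fell by 0.36, while the subunits Anapc1 and Anapc4 differed by 0.15 and 0.015 and did not pass. Pttg1, or securin, differed by -0.23 (limma adjusted p 0.0666), with all knockdown arrays below all controls, and its dimmer probe fell by 0.44 (limma adjusted p 0.00670). Espl1, the protease separase that securin restrains, differed by 0.15 (limma adjusted p 0.123).

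In condensin a single subunit passed, and it was lower (14.3%, against 15.8% of all genes). Ncapd2, a HEAT-repeat subunit of condensin I, had levels of 4.45, 4.44 and 4.45 in control and 4.16, 4.06 and 4.17 in knockdown. Without overlap between groups it fell by 0.32 (SE 0.048, limma adjusted p 0.00976), and the other 6 of 7 condensin genes did not pass. Its partner Ncaph, the kleisin that closes the ring, had levels of 4.46, 4.39 and 4.49 in control and 4.54, 4.47 and 4.54 in knockdown, which overlap. The change of Ncapd2 was lower than that of Ncaph by a difference of -0.39 (exact permutation p 0.1). As for the other pairs, this p cannot decide whether the partners differ. Ncapg2 of condensin II differed by 0.18 (limma adjusted p 0.106) and the core ATPase Smc4 by -0.17 (limma adjusted p 0.114).

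The Ncapd2 window is chr6:125191537-125191836 on the minus strand, and it is shown because it holds 3 CCAAT matches, all read as ATTGG on the strand of the gene, at 177, 148 and 48 bases before the start, and 1 match to the homology region.
Ncapd2: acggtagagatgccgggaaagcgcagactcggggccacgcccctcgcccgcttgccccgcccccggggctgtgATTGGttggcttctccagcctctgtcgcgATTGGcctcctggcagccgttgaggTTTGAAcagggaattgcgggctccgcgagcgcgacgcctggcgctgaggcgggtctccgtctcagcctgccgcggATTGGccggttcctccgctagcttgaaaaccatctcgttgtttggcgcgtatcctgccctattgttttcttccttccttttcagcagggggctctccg

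Among 6 cohesin genes and their protectors, 3 were lower (against 15.8% of all genes) and none was higher (against 15.7%). As at the inner kinetochore, so few genes give no precise share. Stag2, which takes the place of Stag1 in a separate form of cohesin, had levels of 1.93, 1.89 and 2.01 in control and 1.62, 1.54 and 1.58 in knockdown. It fell by 0.36 (SE 0.051, limma adjusted p 0.00810). Sgo1, the shugoshin that shields centromeric cohesin, had levels of 4.23, 4.19 and 4.22 in control and 3.93, 3.89 and 3.93 in knockdown and fell by 0.29 (SE 0.040, limma adjusted p 0.00716). For neither gene did the groups overlap. Smc1a, a core ATPase of the ring, had levels of 5.48, 5.43 and 5.48 in control and 5.22, 5.13 and 5.21 in knockdown, also without overlap, and fell by 0.28 (SE 0.047, limma adjusted p 0.0137).

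The counterparts of these 3 genes did not pass. Stag1 differed by -0.15 (limma adjusted p 0.170), Smc3, the other ATPase of the ring, by 0.017 (limma adjusted p 0.864), and Sgo2a by 0.16 (limma adjusted p 0.117). The change of Stag2 was lower than that of Stag1 by -0.21, and that of Smc1a lower than that of Smc3 by -0.29, with the exact permutation p of 0.1 for both pairs. Both pairs were chosen by outcome, so this p cannot decide whether the partners differ.

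**Figure D3:**
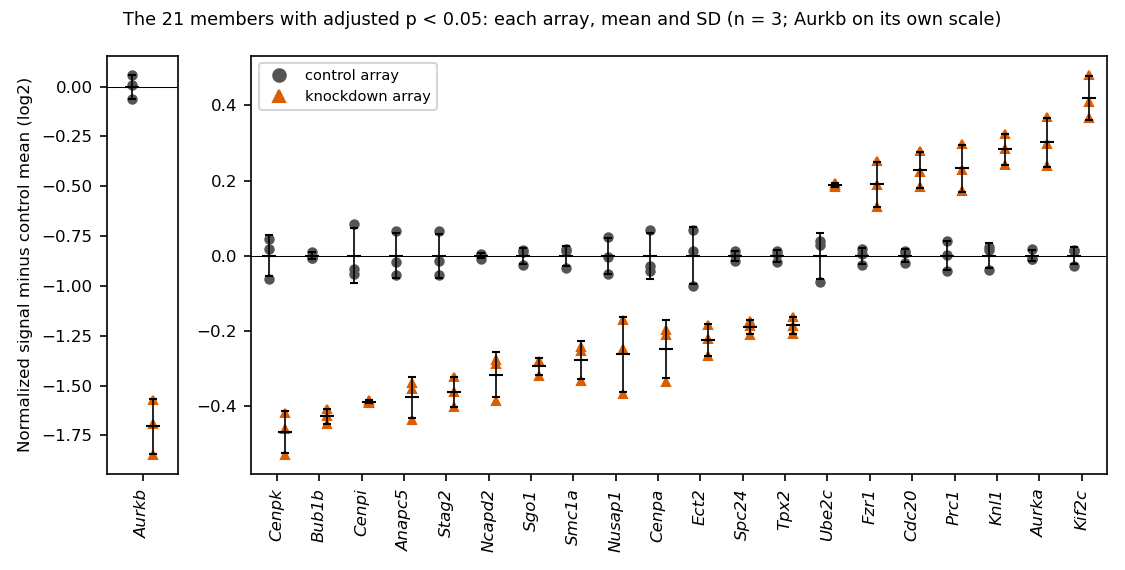
Level of the 21 members that passed the test, on each array, minus the control mean of the gene (log2), with bars for mean and SD of 3 arrays and Aurkb on a scale of its own. For every gene the 3 knockdown arrays lie on 1 side of the 3 controls, which selection by the test on the same arrays largely fixes.

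Over fits that left out 1 array, these 21 genes split much as by their main adjusted p. Those with a main limma adjusted p up to 0.00976 passed in all 6 fits, and those from 0.0222 up passed in 0. Passing in 0 fits therefore does not show that a gene hangs on 1 array. When each array was left out in turn, Aurkb, Bub1b, Cenpi, Cenpk, Anapc5, Ncapd2, Stag2 and Sgo1 passed in all 6 fits, Smc1a in 5, and Cenpa, Spc24, Tpx2, Nusap1 and Ect2 in 0. Of the higher members, Kif2c passed in 6, Knl1 in 5 and Aurka in 3, and the others in 0. With the row of the slide as a block, which rests on knockdown array 1 against the controls of its row, 2 lower members (Aurkb at -1.57 and Bub1b at -0.43) and 2 higher members (Kif2c at 0.48 and Aurka at 0.37) passed. The other 12 lower members had limma adjusted p of 0.0536 to 0.249 in that fit and the other 5 higher members 0.0738 to 0.221, and all 21 kept their sign.

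The CCAAT letters were counted over all members with a promoter in the table, which are 49 of 56 genes with 57 windows. Aurkb, Incenp, Kif20a, Smc4, Spc24, Stag2 and Tpx2 are not among them. CCAAT stood in 32 of 49 genes (65.3%), against 42.6% of tested genes with a promoter and 37.4% of all 32851 windows. The homology region stood in 29 of 49 (59.2%), against 17.8% of tested genes and 19.2% of all windows. Counting only bases before the start, it stood in 15 of 49 (30.6%), against 16.0% of tested genes. In the whole window both kinds of letters stood in 23 (46.9%), against 7.38% of tested genes. A match is a string of letters and not a shown binding site.

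By outcome, CCAAT stood in 9 of 10 genes that were lower (90.0%), 5 of 7 that were higher (71.4%) and 18 of 32 that did not pass (56.2%). Counting only bases before the start, where the matches of Cenpi and Sgo1 drop out, the shares were 7 of 10 (70.0%), 5 of 7 (71.4%) and 18 of 32 (56.2%), so lower and higher members were not set apart by them. Among all genes with a promoter, under the stricter rule with the fold limit, CCAAT stood in 55.8% of those called lower, 36.5% of those called higher and 42.1% of those not called. Changes of the 32 genes with CCAAT spanned -0.47 to 0.42 with a median of 0.0098, and those of the 17 genes without it spanned -0.26 to 0.42 with a median of 0.055. Among the windows printed above, Cenpk with 2 matches was lower and Cdc20 with 2 was higher. Only the windows of Bub1b, Cenpk, Ncapd2, Kif2c, Cdc20 and Ube2c are printed, and they were picked after the values were seen.

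**Figure D4:**
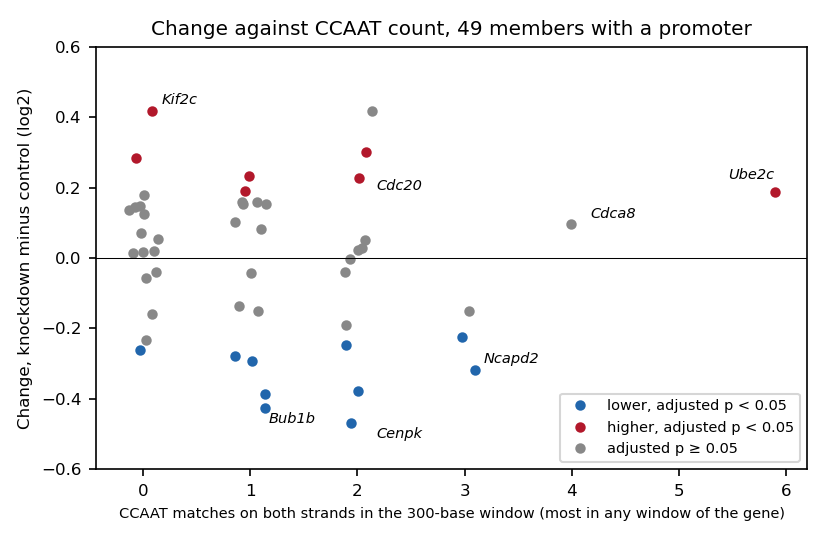
Log2 change of each of the 49 members with a promoter against its number of CCAAT matches on both strands, taking the window with most matches, with a small sideways shift to part the points. Genes with 2 matches lie on both sides of 0, and Ube2c with 6 was higher by 0.19.

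Beyond the members, 93 other genes of the same machinery were listed from general knowledge, with earlier results of these data known. All but Kif14 were tested, which left 92 genes. Of these, 5 were called lower (5.43%, against 5.00% of all genes) and 1 higher (1.09%, against 3.91%). At the adjusted p alone 18 were lower (19.6%) and 16 higher (17.4%), and the median change was 0.048. The share called lower is near that of all genes, and the share called higher is below it.

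The called genes came from several steps of mitosis. Arpp19, an inhibitor of the phosphatase that opposes mitotic entry, had levels of -1.78, -1.87 and -1.74 in control and -3.07, -3.11 and -2.91 in knockdown and fell by 1.23 (SE 0.074, limma adjusted p 0.000815). Cdc23, a subunit of the anaphase-promoting complex like Anapc5, had levels of -1.74, -1.68 and -1.56 in control and -2.43, -2.59 and -2.57 in knockdown and fell by 0.87 (SE 0.075, limma adjusted p 0.00190). Neither Arpp19 nor Cdc23 overlapped between groups. Over the alternatives the change of Arpp19 was -1.29 to -0.84 and that of Cdc23 was -0.92 to -0.61, and both stayed called in all 18. Cdca3 fell by 0.80 (limma adjusted p 0.000669). Mis18a, needed to load Cenpa onto centromeres, fell by 0.68 (limma adjusted p 0.00156), and Ska2, of a complex that works beside Ndc80, fell by 0.66 (limma adjusted p 0.00176). Cenpb, which binds a short element of satellite DNA, rose by 0.65 (SE 0.11, limma adjusted p 0.0128) but was not called without control array 3 or with the row of the slide as a block. The farthest gene among the other cohesin and condensin genes was the cohesin loader Nipbl, which rose by 0.40 (limma adjusted p 0.0249). Nipbl passed in 10 of 18 alternatives and in 1 of the 6 fits that left out 1 array, the one without knockdown array 2, with limma adjusted p of up to 0.0906 over the alternatives.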

How the data were processed

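RNA of neuro2a cells was hybridised to 6 single-colour Agilent arrays, 3 control and 3 knockdown, and groups and replicate numbers come from the sample titles. Spot values were made by the authors with Feature Extraction 10.10.1.1 of Agilent, whose processed signal was deposited as an intensity, already corrected for background. The series matrix was deposited as log2 values with no stated scale. Its differences between arrays fell within 0.0075 of those of the scaled scanner signals over 43557 probes, which fixes scale and direction, while the constant taken off each probe stays unknown. The medians of its columns were -0.012 to 0.018, and it served as an alternative only.

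Control spots and outlier spots were left out, each array was set to its own 75th percentile over non-control spots on the log2 scale, and repeated spots were averaged. There were 55681 probes, and 245 had no value on some array. Testing required all 3 arrays of either group to reach the 20th percentile of the array, and 42126 probes did so. Symbols came from a RefSeq table of assembly GRCm38.p6 by accession without version, which matched 25869 of 26392 probes with a curated mRNA accession. Array annotation uses another build, so probes are given without position. Reading each gene from its brightest probe gave 16490 genes.

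The comparison used lmFit and eBayes of limma 3.58.1 under R 4.3.3, two-sided and with no covariates, p-values were adjusted by Benjamini-Hochberg over all probes, and the code was tested on simulated data. The number of arrays limits the precision. Same-numbered arrays of both groups had correlated deviations of 0.018, 0.067 and 0.0025, none over 0.1, so numbers were not taken as pairs. The members, role groups and gene lists were chosen with earlier results of these data known. Genes named are Nfya and Nfyc, all members that passed, at most 2 others per role group with the largest change, partner subunits, the called genes of the other mitotic list and its farthest gene per group. Nfyb, Birc5, Nek2, Mad2l1, Bub3, Spc25, Ndc80, Nuf2, Anapc1 and Anapc4 were named after their values were seen. Promoter letters were searched on both strands with Python 3.11.15.

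Alternatives were quantile normalization, median centring, normexp with an offset of 50 (on median spot signals, since the tables used here hold no mean signal), the series matrix, other filters on dim probes, a trend of the variance on signal, weights per array, blocks for the replicate number and for the row of the slide, averaging the probes of a gene, other fold limits and leaving out each array.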

Additional observations from a re-analysis of the deposited data

Results flagged for a closer look

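Probes that are not the brightest of their gene were not used for the comparisons above. Of 14 such probes in 13 members, 12 had a change of the same sign as the brightest probe and 2 of the opposite sign, and 3 passed the test where the brightest did not. For Mad2l1, the checkpoint protein that binds Cdc20, a dimmer probe (A_55_P2138333) had levels of 0.17, 0.11 and 0.16 in control and 0.38, 0.34 and 0.41 in knockdown, a rise of 0.23 (limma adjusted p 0.0194), while the brightest probe differed by -0.056. For Nuf2, a subunit of the Ndc80 complex, a dimmer probe (A_55_P2174704) had levels of -2.22, -2.22 and -2.15 in control and -1.71, -1.78 and -1.87 in knockdown, a rise of 0.41 (limma adjusted p 0.00816), while the brightest probe differed by 0.019. The dimmer Pttg1 probe is given above. In 0 genes did 2 probes pass in opposite directions. Which transcripts these probes read was not tested.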

How the results depend on the processing

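Aurkb kept its call in all 18 alternatives of the fit (change -1.77 to -0.93, the smallest size under normexp), and Nfya and Nfyc kept theirs. With a fold limit of 1.2 in place of 1.5, 9 members were called lower and 3 higher, and with a limit of 2 only Aurkb was called. Members lower at the adjusted p, 14 in the main setting, numbered 9 with median centring, 9 without a filter on dim probes, 9 with the replicate number as a block, 2 with the slide row as a block and 8 to 9 when 1 array was left out. Members higher, 7 in the main setting, numbered 12 with quantile normalization, 1 with median centring, 4 without a filter, 15 with a variance trend, 2 with the replicate block, 2 with the slide row, 11 with the probes of a gene averaged and 1 to 3 when 1 array was left out. The replicate numbers do not pair the arrays, and not every array correlated best with its own number. The median change of the members was 0.051 with quantile normalization and -0.039 with median centring. Over all genes, 549 were lower and 292 higher under normexp, 286 and 181 at a fold of 2, and 2130 and 2046 at a fold of 1.2. These counts carry a fold limit, and all genes at the adjusted p alone were counted in the main setting only. Of the other mitotic genes, 1 was lower and 0 higher at a fold of 2, 14 and 11 at 1.2, and 0 were higher with the slide row and 0 to 1 when 1 array was left out. Over 48 named genes, 708 values kept direction and side of the threshold, 123 lost the threshold, 33 passed it newly and 0 turned. The causes were not tested. Counting only bases before the start, CCAAT stood in 30 of 49 members (61.2%) and in 7 of 10 lower ones (70.0%). The number of arrays limits the precision of all values.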
